A study of Danio rerio with 20 samples.

Results

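On the arrays analysed here, some features reported exactly the same log2 signal as other features in every one of 20 testis samples. A set of such features is called a shared profile below. The shared profiles described are those carried by 6 or more features. They were chosen by the identity of their measured values, that is by grouping the rows of the deposited table that were equal in all 20 columns, and each profile was counted once under the lowest identifier (ID) among its rows. There were 169 such profiles, carried by 1095 of 75212 features, among 65942 distinct profiles in all. A profile carried by a single feature (60923 of them) serves as the comparison throughout and is called a single-row profile.

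The samples were testicular tissue of adult zebrafish males (strain AB, wild type, 1 year old), with 1 Affymetrix whole-transcript array per fish. The 4 groups of 5 fish were the F1 TCDD lineage, the F1 DMSO lineage, the F2 TCDD lineage and the F2 DMSO lineage. Their F0 ancestors had been kept for 1 h in water holding the dioxin TCDD (2,3,7,8-tetrachlorodibenzo-p-dioxin) at 50 pg/ml, or in the DMSO vehicle, at both 3 and 7 weeks after fertilization. The F1 and F2 fish measured were not exposed. Since no label names the clutches or tanks of these fish, p-values cover the spread among the sampled fish only.

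TCDD binds the aryl hydrocarbon receptor (AHR), a transcription factor that switches on genes of xenobiotic metabolism. The testis is made up mostly of germ cells in successive stages of spermatogenesis, supported by Sertoli cells and by steroid-producing Leydig cells. A whole-transcript array measures each gene through probes spread along the transcript, and the value of a feature summarises its probes. The signal of a feature depends on its own probes, so the levels below describe signal and not the abundance of one RNA against another.

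The tissue label was compared with marker genes through a table of gene symbols for the features. Germ cell markers were bright (8 of 10 listed genes measured, median log2 signal 10.67, 7 of them in the top 10% of features), as were all 5 Sertoli and all 5 Leydig markers (medians 11.09 and 10.27). The 4 ovary markers lay between 5.29 and 6.86. F1 TCDD replicate 2 went against its tissue label. All 8 germ cell markers, 4 of 5 Sertoli and 5 of 5 Leydig markers were lower there than the mean of the other 4 F1 TCDD fish, by medians of −4.53, −5.30 and −4.64 on the log2 scale, whereas 4 of 5 immune markers were higher (median 1.11). With this fish included, the germ cell markers had a median TCDD minus DMSO change of −1.32 in F1 and 0.01 in F2, and 0 of 8 passed in either generation. Without it the F1 median was −0.36. The F1 medians with and without this fish were −0.93 and −0.05 for Sertoli markers and −1.20 and −0.17 for Leydig markers. For immune markers they were 0.79 and 0.57, and for blood markers 0.58 and 0.64. No marker of these lists passed in F1 with the fish included. The 2 blood markers measured lay at 6.74 and 8.97, and the 3 muscle markers between 5.81 and 7.72. The part of F1 TCDD replicate 2 in the F1 results was not tested. Most counts and medians of the F1 lineage difference below are also given without this library. The SDs among fish and the counts of matching sign are given with it. The arrays also fell into 8 with higher medians (replicates 1 to 4 of both F1 groups) and 12 with lower medians (replicate 5 of both F1 groups and every F2 array), so array set and generation largely coincided. In bulk tissue, fewer cells of a type and less RNA per cell cannot be told apart.

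Most of the shared profiles were carried by 6 features (133 of 169), and 31 by 8. Single profiles were carried by 7, 11 and 13 features, and 2 by 9. Just outside the rule, 187 profiles were carried by 5 features. These had a median level of 4.87 and a median within-group SD of 0.523, against 5.07 and 0.531 for the 133 profiles with exactly 6 features.

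None of the shared profiles could be given a gene name. Of the 1095 rows, 2 appeared in the symbol table, both of profile 13247193, and they were paired with 10 and 11 symbols, so no single gene could be assigned. Among single-row profiles, 35.5% of features were annotated. Almost all of the shared profiles (161 of 169) lay in the lowest stretch of IDs, below the first annotated ID. That stretch held 13972 features, of which 9.50% were single-row profiles, while 97.3% of the 61240 features from the first annotated ID on were single-row. Member rows made up 7.34% of the features in the low stretch and 0.113% of the others. Whether features of the low stretch are controls or another feature type is not known here. No probe sequences were at hand, so the reason for the identical values was not examined.

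In ID order these 161 profiles were not scattered. They formed 8 families, labelled A to H here by size, in which whole runs of consecutive features recurred in the same order at other IDs. Family A was a run of 31 consecutive features that occurred 6 times, and family B a run of 30 that occurred 8 times. Families C to G were runs of 24, 23, 21, 15 and 14 features, each found 6 times. Family H was a run of 4 features, of which 3 qualified, also found 6 times. Consecutive features in the low stretch were 2 ID units apart, and every step in families A to G had this size. Most features bordering a run were also shared, but by fewer than 6 rows, so the run ends depend on this limit. The runs were noticed after the values had been seen.

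The spacing between recurrences differed between families. In family D the nearest recurrences began 50 ID units apart and the whole family lay within 512 units. In family B the nearest began 60 units apart, which places one run directly after another. The recurrences of family C were at least 1190 units apart, and those of family F at least 1578. The widest families, F and H, spanned 23334 and 20280 units.

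**Figure D1:**
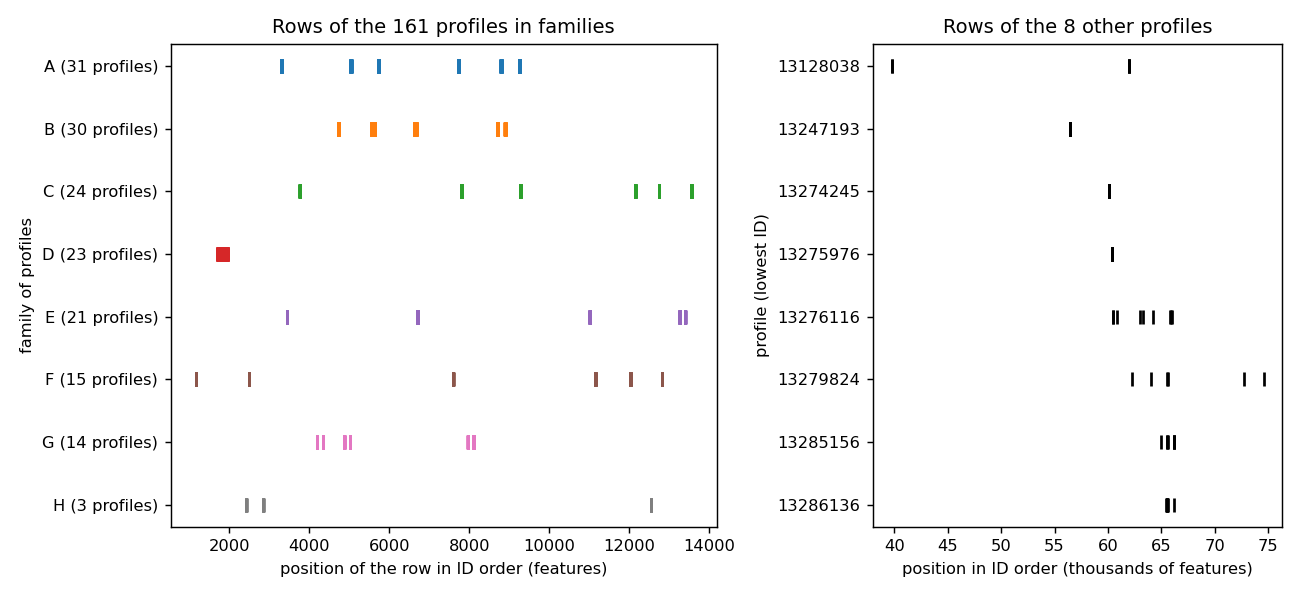
Position of every row of the 169 shared profiles in ID order, counted in features, for the 8 families (left) and the 8 profiles outside them (right); each tick is a row, and ticks of neighbouring rows merge. The 161 family profiles recur as compact runs at 6 places (8 for family B), whereas the rows of 13128038 spread over 22237 features.

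The 8 profiles outside the families had IDs above the first annotated one. Profile 13247193 had the most rows, 13 within 132 ID units, and 13274245 had 11 rows within 74 units, the smallest span of any shared profile. The rows of 13128038 were the farthest apart, 6 rows over 151196 ID units. The other 5 (13275976, 13276116, 13279824, 13285156 and 13286136) had 6 to 9 rows over 114 to 24640 units.

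The shared profiles were mostly dim. Their mean level over the 20 arrays had a median of 5.03, from 1.88 to 12.57, against 6.55 for single-row profiles. The low level was not particular to them. Single-row profiles of the low ID stretch had a median of 4.23, profiles of 2 rows 5.15 and those of 3 to 5 rows 4.84. The median shared profile stood at the 24.4th percentile of single-row levels. Family medians ran from 3.27 (D) and 3.68 (B) to 5.75 (G), and the profiles outside families were brighter (median 8.19).

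The dimmest was 12920825 of family H, with 2.08, 2.23, 2.08, 1.94 and 1.97 in F1 TCDD fish and 1.95, 1.93, 1.92, 2.01 and 1.65 in F1 DMSO fish. In F2 it had 1.68, 1.52, 1.70, 1.68 and 2.03 in TCDD fish and 1.37, 1.93, 2.39, 1.94 and 1.51 in DMSO fish. Its groups overlapped in both generations. Profile 12925459 of family B, next in level, averaged 1.89 and had the second smallest spread (pooled within-group SD 0.192). Only 12925411, of the same family, varied less (SD 0.190, mean level 2.06).

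The brightest were 13274245 and 13247193, with mean levels of 12.57 and 12.47. Profile 13274245 had 13.13, 9.45, 13.45, 13.50 and 12.16 in F1 TCDD fish and 13.37, 13.22, 13.41, 13.35 and 13.11 in F1 DMSO fish. In F2 it had 12.83, 12.64, 11.59, 12.26 and 12.66 in TCDD fish and 12.92, 12.52, 12.07, 11.62 and 12.14 in DMSO fish. The low value of 9.45 belongs to F1 TCDD replicate 2, and no other fish was under 11.59.

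Profile 13247193 had 12.98, 9.28, 13.32, 13.35 and 12.10 in F1 TCDD fish and 13.21, 13.07, 13.26, 13.18 and 13.05 in F1 DMSO fish. In F2 it had 12.76, 12.59, 11.53, 12.20 and 12.58 in TCDD fish and 12.85, 12.48, 11.98, 11.55 and 12.08 in DMSO fish. It followed 13274245 closely, although their rows were apart in ID order (Pearson r = 0.999 over the 20 fish, and 0.999 without F1 TCDD replicate 2).

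Neighbouring features behaved like the rows of these bright profiles without being identical to them. Of the 8 other features inside the ID span of 13247193, 7 correlated with it at r over 0.99, and so did both other features inside the span of 13274245. Such r was not confined to neighbours. Among all features, 36 outside 13247193 and 40 outside 13274245 reached it, including the rows of the other bright profile. These counts include F1 TCDD replicate 2 and were not made without it. The profile most like 13274245 outside the shared profiles was feature 13274283, which differed from it by at most 0.0125 on any array. For 13247193 it was 13247319, with a largest difference of 0.0429.

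Among genes with 1 symbol, those with the highest Pearson r to 13247193 were tdrd7a, a Tudor domain protein of germ granules (0.991), terb1, which anchors meiotic telomeres in mouse (0.9902), and tex14, needed for germ cell bridges in mouse (0.989). For 13274245 they were tex14 (0.992), si:dkey-27d5.14 (0.989) and the dynein light chain dynlt1b (0.989). These r values share the 20 arrays and the low value of F1 TCDD replicate 2. Without it they were 0.982 (tdrd7a), 0.980 (terb1) and 0.974 (tex14) for 13247193, and 0.980 (tex14), 0.978 (si:dkey-27d5.14) and 0.974 (dynlt1b) for 13274245. Ranked without this fish, tdrd7a, terb1 and tex14 came at places 4, 11 and 42 for 13247193, and tex14, si:dkey-27d5.14 and dynlt1b at 26, 43 and 95 for 13274245, so the order of the genes rests partly on it. This search was added after the values had been seen.

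Profiles 13276116, 13285156 and 13286136, at mean levels of 8.26, 8.66 and 8.12, moved together across fish, with pairwise r of 0.978, 0.942 and 0.954. Without F1 TCDD replicate 2 these were 0.976, 0.938 and 0.953. They also followed 13247193 and 13274245, with r from 0.752 to 0.857, and from 0.865 to 0.922 without that fish. Profile 13275976 ran the other way, with r from −0.605 to −0.433 with the other 7 profiles outside families. Without F1 TCDD replicate 2 the range was −0.52 to −0.30. Differences between groups and array sets were not removed from these r values. Profile 13275976 was also the least variable of the 8 (SD 0.257).

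Shared profiles varied more among fish than single-row profiles of the same level. Their pooled within-group SD had a median of 0.516, against 0.382 for single-row profiles. Set beside the 500 single-row profiles of nearest mean level, the median shared profile stood at the 83.2nd percentile for SD. Of the 169, 145 were above the 50th percentile, 28 above the 95th and 0 below the 5th. Family A stood highest, with a median at the 91.8th percentile and 11 of 31 profiles above the 95th.

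The greater spread also marked other features of the low ID stretch. Its 1327 single-row profiles had a median SD of 0.477 at a median level of 4.23. Against the 100 nearest of these alone, the median shared profile stood at the 57.0th percentile instead of the 83.2nd, a comparison added after the values had been seen. By number of rows, the median SD was 0.382 at 1 row, 0.474 at 2, 0.502 at 3 to 5 and 0.516 at 6 or more. These medians were not matched for level or ID stretch, and a relation to the number of rows was not tested.

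**Figure D2:**
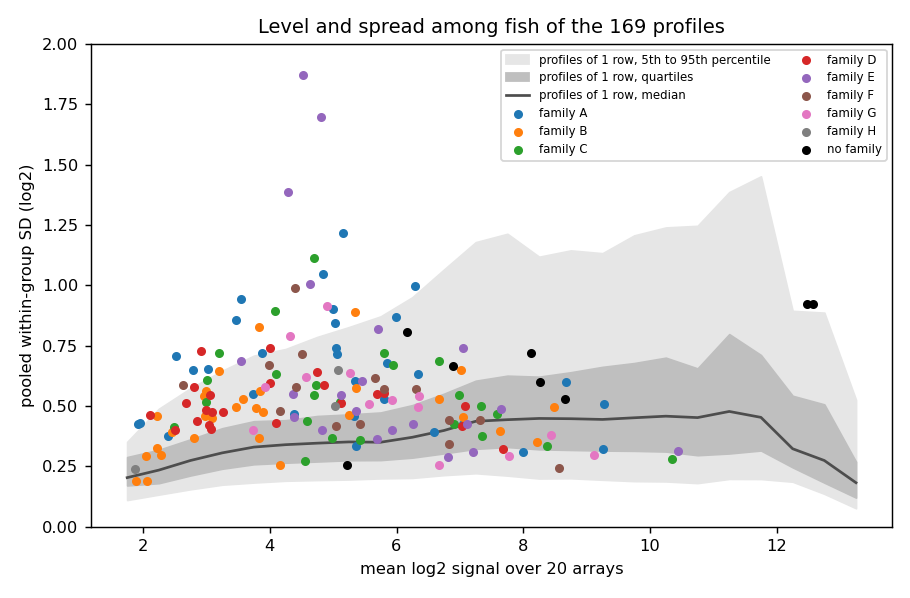
Pooled within-group SD (log2) against mean log2 signal over the 20 arrays for the 169 shared profiles, coloured by family, over the quartile and 5th to 95th percentile bands of single-row profiles in level bins. Most points (145 of 169 by nearest neighbours) lie above the middle of the single-row profiles, and the 2 highest are 12922875 and 12922877 of family E.

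The most variable shared profiles were 12922875 and 12922877 of family E, with SDs of 1.87 and 1.70. Profile 12922875 had 5.97, 6.70, 5.70, 6.48 and 1.69 in F1 TCDD fish and 5.64, 6.69, 6.95, 2.47 and 6.68 in F1 DMSO fish. In F2 it had 6.30, 6.001, 2.39, 1.89 and 5.13 in TCDD fish and 5.27, 2.002, 1.89, 2.34 and 2.17 in DMSO fish. The fish divided into 8 at 2.47 or lower and 12 at 5.13 or higher, with no value between.

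The 8 low fish came from all groups: 1 of 5 in F1 TCDD, 1 of 5 in F1 DMSO, 2 of 5 in F2 TCDD and 4 of 5 in F2 DMSO. Profile 12922877, the next feature in the run, had 6.72, 4.53, 6.41, 7.40 and 2.51 in F1 TCDD fish and 6.55, 6.99, 7.77, 3.86 and 6.46 in F1 DMSO fish. In F2 it had 5.82, 5.45, 1.97, 2.23 and 5.57 in TCDD fish and 5.27, 3.05, 2.12, 2.13 and 3.24 in DMSO fish. The same 8 fish were its lowest.

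Profile 12922871, 2 places before 12922875 in the run and singled out after its values were seen, divided the fish in the same way, with the same 8 at 3.52 or lower and the other 12 at 4.73 or higher. With group means and array shifts removed, it correlated at r = 0.946 with 12922875 and at 0.941 with 12922877. Profile 12922873, which stands between 12922871 and 12922875, had its widest gap elsewhere, below 6.27, with 2 F2 DMSO fish under it. Of all 169 shared profiles, 2 had a widest gap of over 1 log2 unit with at least 5 fish on each side, namely 12922871 and 12922875. How often single-row profiles had such a gap was not counted. Outside the shared profiles, the number of 65773 profiles that correlated at r over 0.9 was 3 for 12922871, 2 for 12922875 and 17 for 12922877. The closest to 12922875, 12924703, was itself carried by 3 rows.

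**Figure D3:**
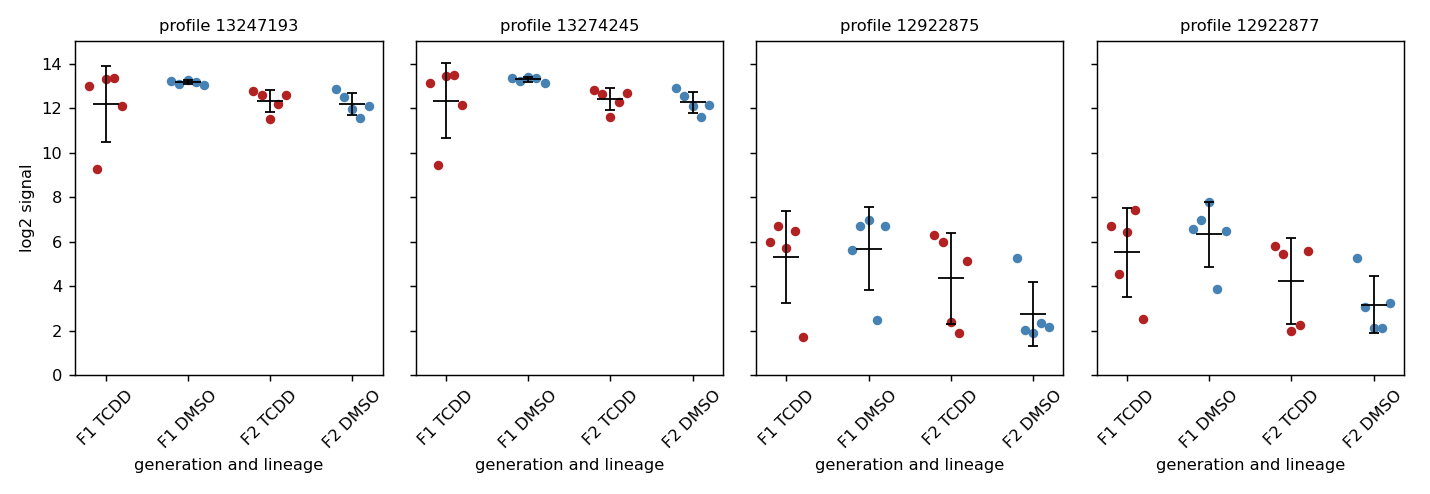
Log2 signal of each fish in the 4 groups for the 2 brightest shared profiles (13247193, 13274245) and the 2 most variable (12922875, 12922877); points are fish, the black marks are means and bars are SD (n = 5). F1 TCDD replicate 2 is the single low point of the bright profiles, and 12922875 shows 8 fish at 2.47 or lower and 12 at 5.13 or higher.

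Most pairs of profiles within a family were weakly correlated. With group means and array shifts removed, the median r between 2 profiles of the same family was 0.119 (1838 pairs), and 0.0691 between profiles of different families (11042 pairs). These r values share the 20 arrays and describe the pairs only. Family E had the highest within-family median (0.241) and family H the lowest (−0.0354). For adjacent features of a run the medians were higher in 7 of the 8 families, from 0.0178 in H to 0.332 in F, and −0.0185 in B. An r over 0.8 was reached in 0.925% of within-family pairs and 0.127% of pairs between families.

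**Figure D4:**
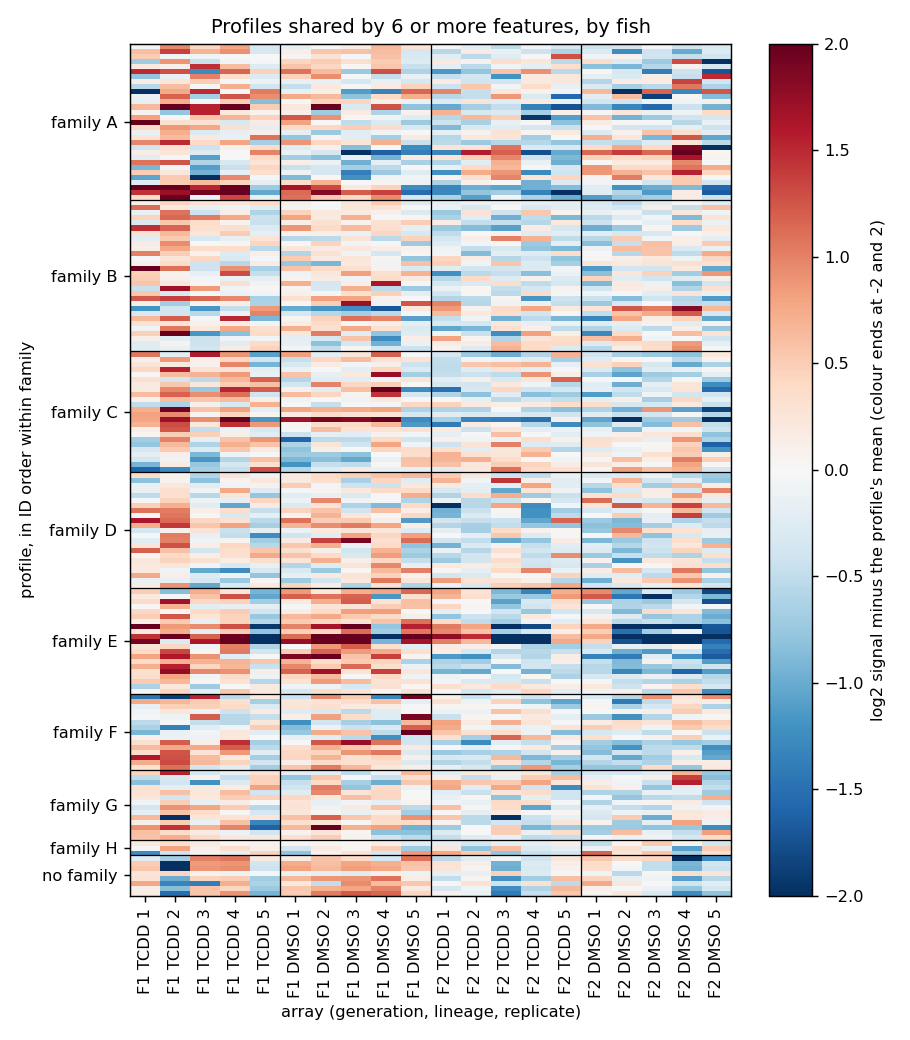
Log2 signal of the 169 shared profiles in each fish minus the mean of the profile over 20 arrays, with profiles in ID order within families (rows) and fish by generation, lineage and replicate (columns); colours end at −2 and 2. F1 TCDD replicate 2 is the highest of the 20 arrays in 46 profiles, F2 columns are mostly below the mean, and the dark band in family E holds 12922871, 12922875 and 12922877. That array also has the highest median deviation in single-row profiles (0.37, against 0.52 in shared profiles). The share of single-row profiles that are highest there was not counted.

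The first question the design asks is whether F1 fish of the TCDD lineage differed from F1 fish of the DMSO lineage. No shared profile passed the threshold (0 of 169, limma with Benjamini-Hochberg adjustment over 75212 features, smallest adjusted p = 0.583), and 0.0% of all features did. At an unadjusted p under 0.05 there were 12 of 169, 6 higher and 6 lower in the TCDD lineage. The share over all features at that limit was 7.13%, so the 12 (7.10%) lay at the background. Without F1 TCDD replicate 2 there were 9 (5.33%), against 2.65% of all features, and 0 of 169 passed, as did 0.0% of all features.

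The absolute F1 difference had a median of 0.234 in shared profiles, against 0.237 in single-row profiles. The medians were 0.230 and 0.158 without F1 TCDD replicate 2. In F2 they were 0.195 and 0.129. Beside the 500 single-row profiles of nearest level, the median shared profile stood at the 60.0th percentile in F1, at the 72.2nd without F1 TCDD replicate 2, and at the 71.2nd in F2. The size of the difference was thus close to that of all single-row profiles only in F1 with this library included. It was larger otherwise, as was the SD of the shared profiles among fish. In F2 the medians were 0.1875 in single-row profiles of the low ID stretch, 0.183 at 2 rows and 0.205 at 3 to 5 rows. The larger F2 difference was thus not particular to the shared profiles.

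The F1 differences named are those of smallest unadjusted p in each direction. Profile 12922597 of family A had 6.43, 6.53, 6.03, 6.28 and 7.29 in F1 TCDD fish, against 6.16, 5.95, 4.02, 4.66 and 4.92 in F1 DMSO fish. The groups overlapped, with only F1 TCDD replicate 3 under the highest DMSO fish. The log2 change was 1.37 (SE 0.58, limma adjusted p = 0.583).

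Profile 12923535 of family C had 4.04, 5.72, 4.56, 5.30 and 5.61 in F1 TCDD fish, against 3.15, 4.20, 4.20, 5.14 and 4.33 in F1 DMSO fish (log2 change 0.84, SE 0.35, limma adjusted p = 0.583). The groups overlapped. Of those with negative differences, 12919425 of family D had 2.58, 3.82, 2.73, 2.88 and 2.11 in F1 TCDD fish, against 2.98, 4.18, 4.69, 3.15 and 3.92 in F1 DMSO fish (log2 change −0.96, SE 0.35, limma adjusted p = 0.583). Here too the groups overlapped. Profile 12925451 of family B had 3.98, 3.15, 3.92, 3.99 and 3.22 in F1 TCDD fish, against 3.88, 4.34, 5.57, 3.74 and 5.11 in F1 DMSO fish (log2 change −0.88, SE 0.34, limma adjusted p = 0.583). Without F1 TCDD replicate 2 the changes of 12922597, 12923535, 12919425 and 12925451 were 1.37, 0.67, −1.21 and −0.75.

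In 2 of 169 shared profiles the F1 lineages did not overlap, against 0.856% of all features. Both were singled out after their values were seen. Profile 12918327 of family F had 5.28 to 5.63 in TCDD fish and 4.20 to 5.28 in DMSO fish, and 12922569 of family A had 1.84 to 2.45 in TCDD fish and 1.60 to 1.81 in DMSO fish. The gaps between the groups, from 5.2787 to 5.282 and from 1.8126 to 1.8373, were narrow. When F1 TCDD replicate 2 was left out there were 3 of 169, against 1.02% of all features: both of these and 12919425, with 2.11 to 2.88 in TCDD fish and 2.98 to 4.69 in DMSO fish.

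In F2, the second generation after exposure, 0 of 169 shared profiles passed (smallest limma adjusted p = 0.447), against 0.0957% of all features. An unadjusted p under 0.05 was reached by 7 of 169, 1 higher and 6 lower in the TCDD lineage, against 4.1% of all features. These 7 (4.14%) again lay at the background. The 72 features that passed in F2 included 42 single-row profiles and 9 profiles of 3 to 5 rows, each profile counted once. The F2 lineages overlapped in all 169 shared profiles, while they did not overlap in 1.3% of all features.

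Profile 12919411 of family D had the smallest p in F2, with 1.91, 3.45, 4.79, 2.74 and 3.95 in TCDD fish, against 4.27, 5.25, 4.69, 5.36 and 4.66 in DMSO fish. F2 TCDD replicate 3 lay within the DMSO range and the other TCDD fish below it. The log2 change was −1.47 (SE 0.44, limma adjusted p = 0.447). Profile 12925429 of family B had 3.73, 3.35, 3.50, 3.04 and 2.92 in TCDD fish, against 3.70, 4.46, 4.40, 3.52 and 3.69 in DMSO fish (log2 change −0.65, SE 0.23, limma adjusted p = 0.770). These groups overlapped through F2 TCDD replicate 1.

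With positive differences, 12918331 of family F had 5.05, 4.83, 5.07, 5.24 and 4.36 in F2 TCDD fish, against 4.27, 3.86, 4.52, 4.54 and 3.82 in F2 DMSO fish (log2 change 0.71, SE 0.26, limma adjusted p = 0.813). The overlap came from F2 TCDD replicate 5. Profile 12922873 of family E had 8.02, 7.62, 6.39, 6.71 and 7.16 in F2 TCDD fish, against 7.54, 5.57, 6.36, 6.99 and 5.32 in F2 DMSO fish (log2 change 0.83, SE 0.44, limma adjusted p = 1.0). No F2 difference named here passed.

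The lineage difference in F2 was also tested against that in F1, as the first minus the second. No shared profile passed (0 of 169, smallest limma adjusted p = 0.714; 0.0% of all features), and 9 had an unadjusted p under 0.05, against 6.1% of all features. The smallest p was that of 12922597 (difference of differences −2.82, SE 0.82, limma adjusted p = 0.714), whose F2 values were 4.98, 7.86, 7.49, 4.53 and 5.28 in TCDD fish and 7.44, 7.69, 7.44, 8.51 and 6.33 in DMSO fish. In the other direction it was 12919399 of family D (0.77, SE 0.29, limma adjusted p = 0.730). Without F1 TCDD replicate 2, 14 of 169 (8.28%) had an unadjusted p under 0.05, against 4.44% of all features. No shared profile passed in that fit, and 0.00798% of all features did. The differences of 12922597 and 12919399 were then −2.82 and 0.79 (limma adjusted p = 0.932 and 0.996).

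The signs of the differences were spread over both directions. The mean was higher in the TCDD lineage in 100 of 169 shared profiles in F1 and in 95 of 169 in F2, against 56.0% and 48.2% of single-row profiles. The sign was the same in both generations in 74 of 169 (43.8%), and in 43.0% of single-row profiles. In single-row profiles of the low ID stretch, 64.5% were higher in F1, 55.8% were higher in F2 and 50.4% had the same sign. At 3 to 5 rows these shares were 61.6%, 56.9% and 50.2%. The F2 share of the shared profiles (56.2%) was thus not particular to them. Without F1 TCDD replicate 2, 83 of 169 were higher in the TCDD lineage in F1, and 49.0% of single-row profiles.

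Some families leaned to one side and others did not. The profiles of a family were measured on the same fish, so they are no replicates of one another. In family A, 26 of 31 profiles were higher in the TCDD lineage in F1 and 11 of 31 in F2. Family B had 23 of 30 in F1 and 9 of 30 in F2, and family C had 19 of 24 and 18 of 24. In family E, 3 of 21 were higher in the TCDD lineage in F1 and 20 of 21 in F2.

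Without F1 TCDD replicate 2 the F1 counts were 21 of 31 for A, 19 of 30 for B, 17 of 24 for C and 2 of 21 for E. With median centring they were 24 of 31, 21 of 30, 17 of 24 and 2 of 21, and with quantile normalization 25 of 31, 21 of 30, 18 of 24 and 2 of 21. Within the 8 higher-median arrays, which hold replicates 1 to 4 of both lineages, the F1 counts were 26 of 31 for A, 22 of 30 for B, 16 of 24 for C and 7 of 21 for E, whose median change was −0.07. The lower-median arrays hold 1 F1 fish of each lineage, and there the counts were 23 of 31, 15 of 30, 15 of 24 and 3 of 21, with a median of −0.77 for E. Of single-row profiles, 50.3% were higher in the TCDD lineage in F1 with median centring and 52.7% with quantile normalization. Their shares were 58.1% in the higher-median arrays and 45.4% in the lower-median arrays. Families D, F, G and H had 10 of 23, 9 of 15, 7 of 14 and 2 of 3 in F1, and 11 of 23, 11 of 15, 10 of 14 and 1 of 3 in F2. The median F1 change of family F, 0.01 as deposited, turned to −0.04 with median centring and to −0.01 with quantile normalization. It was −0.02 without F1 TCDD replicate 2 and −0.47 in the lower-median arrays. For family G, 0.04 as deposited, it was −0.0046 with median centring and −0.05 in the lower-median arrays. For family B, 0.17 as deposited, it was −0.0007 in the lower-median arrays.

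The family means per fish put these counts beside the spread among fish. Family E averaged 6.12 ± 0.57 in F1 TCDD fish and 6.39 ± 0.31 in F1 DMSO fish, and 5.52 ± 0.42 in F2 TCDD fish and 5.05 ± 0.44 in F2 DMSO fish (SD, n = 5 each). In F1 TCDD fish replicate 5 had 5.13 and the others 6.13 to 6.55. In F2 the TCDD fish ran from 5.04 to 5.93 and the DMSO fish from 4.61 to 5.77, so the lineages overlapped. Family A averaged 5.48 ± 0.28 in F1 TCDD fish and 5.14 ± 0.27 in F1 DMSO fish (SD, n = 5 each), with ranges of 5.20 to 5.88 and 4.84 to 5.43. The F1 TCDD mean without replicate 2 was 6.01 ± 0.60 for family E and 5.37 ± 0.19 for family A (SD, n = 4). The lineages overlapped in both generations in all 8 family means, and in F1 also without that fish.

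**Figure D5:**
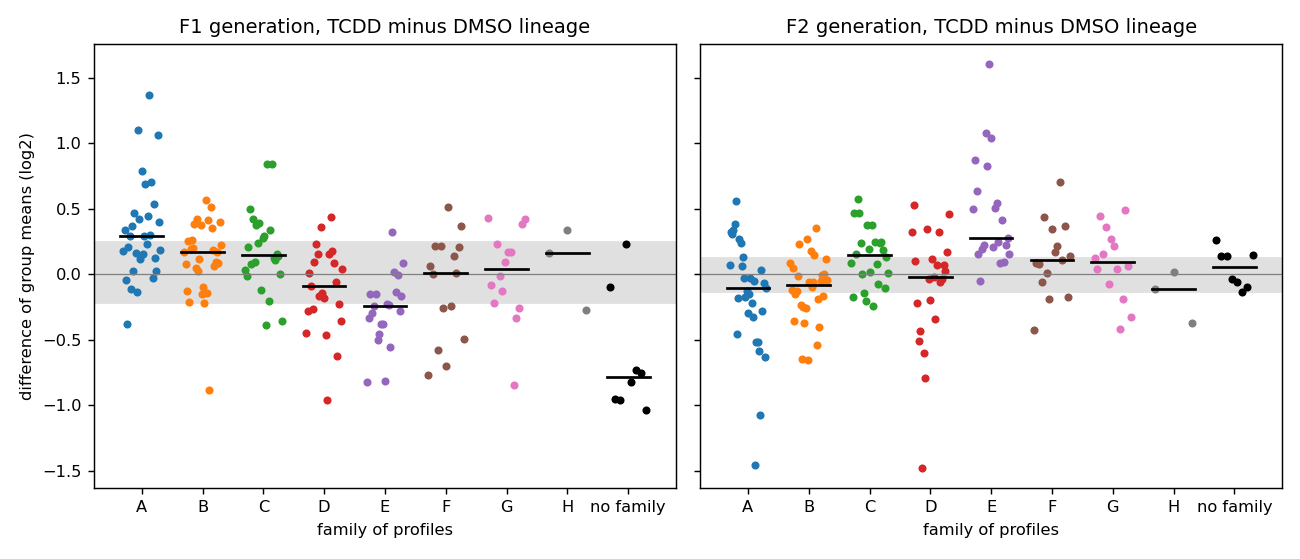
TCDD minus DMSO difference of group means (log2) for each shared profile by family, in F1 (left) and F2 (right); black lines are family medians and the grey band holds the middle 50% of single-row profiles. Family E lies mostly below 0 in F1 and above 0 in F2, and 7 of the 8 profiles outside families lie below 0 in F1.

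Of the 8 profiles outside families, 7 had lower means in the TCDD lineage in F1 (median difference −0.79). F1 TCDD replicate 2 was low in 7 of them, by 3.65 to 0.945 log2 units below the other 4 F1 TCDD fish. Without it, 6 of 8 were lower and the median difference was −0.36. For 13247193 the difference was −0.95 with this fish and −0.22 without it, and for 13274245 it was −0.96 and −0.23. In F2, 4 of the 8 were higher in the TCDD lineage, with a median difference of 0.05.

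The AHR target list covers the pathway of the ancestral exposure, in fish that were not exposed themselves. Of its 8 genes, cyp1a, cyp1c1 and cyp1c2 had no feature with that symbol alone. The 5 measured were cyp1b1, a dioxin-inducible cytochrome P450, the AHR repressors ahrra and ahrrb, tiparp and nfe2l2a. Of these, tiparp is an ADP-ribosyltransferase that restrains the AHR, and nfe2l2a a regulator of the oxidative stress response. None passed between lineages (0 of 5 in F1, smallest limma adjusted p = 0.588, and 0 of 5 in F2, smallest 1.0). Median log2 changes were 0.17 in F1 (0.06 without F1 TCDD replicate 2) and 0.10 in F2, against 0.06 and −0.0014 over all features. The genes differed in direction. Changes ran from −0.57 (ahrrb) to 0.57 (nfe2l2a) in F1, and from −0.15 (nfe2l2a) to 0.73 (ahrrb) in F2, with an SE of 0.37 each.

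Between generations of the DMSO lineage the shared profiles differed more often. In F2 against F1, 50 of 169 passed (29.6%, limma adjusted p under 0.05), 8 higher and 42 lower in F2. Over all features 27.6% passed, 3.01% higher and 24.6% lower, so the count lay near the background. The median change of the shared profiles was −0.34, and that of all features −0.34.

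The count changed with the array set and with scaling. With array set as a block, 0 of 169 passed (smallest limma adjusted p = 0.349; 0.00399% of all features), and 12 (7.10%) had an unadjusted p under 0.05, against 10.1% of all features. With median centring, which moves the median change of all features to −0.02, 25 passed, 13 higher and 12 lower, against 17.2% of all features. With quantile normalization 24 passed, 14 higher and 10 lower, against 16.9% of all features.

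Profile 12922597 of family A was higher in F2, with 7.44, 7.69, 7.44, 8.51 and 6.33 in F2 DMSO fish, against 6.16, 5.95, 4.02, 4.66 and 4.92 in F1 DMSO fish (log2 change 2.34, SE 0.58, limma adjusted p = 0.0101). The groups did not overlap. Blocking on array set gave a change of 2.07 (limma adjusted p = 0.445). Profile 12925453 of family B had 7.27, 8.26, 8.04, 8.83 and 7.66 in F2 DMSO fish, against 6.01, 5.83, 5.78, 5.30 and 7.22 in F1 DMSO fish (log2 change 1.98, SE 0.39, limma adjusted p = 0.0046). The highest F1 fish, replicate 5, belonged to the same array set as the F2 fish, and with the block the change was 0.73 (limma adjusted p = 0.516).

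The largest differences downward were those of 12922877 and 12922875 of family E, whose values per fish are given above. Profile 12922877 averaged 3.16 ± 1.28 in F2 DMSO fish and 6.33 ± 1.47 in F1 DMSO fish (SD, n = 5 each), a change on the log2 scale of −3.16 (SE 0.98, limma adjusted p = 0.025). Profile 12922875 averaged 2.74 ± 1.43 in F2 DMSO fish and 5.68 ± 1.87 in F1 DMSO fish (SD, n = 5 each), a change on the log2 scale of −2.95 (SE 1.08, limma adjusted p = 0.0492). With the block the changes were −1.73 and −1.64 (limma adjusted p = 0.652 and 0.702). The call of 12922875 was lost without any 1 of 13 of the 20 fish, and that of 12922877 without any 1 of 5, with adjusted p of up to 0.113 and 0.0676. For 12922877 these were F1 DMSO replicates 1, 2 and 3 and F2 DMSO replicates 3 and 4. For 12922875 they were F1 TCDD replicates 1, 3 and 4, F1 DMSO replicates 1, 2, 3 and 5, F2 TCDD replicates 2 and 5, and F2 DMSO replicates 2 to 5.

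Family E held 15 of the 42 shared profiles that were lower in F2, with all 21 of its profiles below 0 and a median change of −1.17. The other families had 0 to 5 lower. Over all features 24.6% passed as lower, and the median change was −0.34. With the block 0 of 21 profiles of family E passed and their median was −0.62, still below 0 in all 21. Over all features 0.00399% passed with the block, and the median was 0.03. With median centring 6 of 21 in family E passed as lower and 20 were below 0 (median −0.86). With quantile normalization 5 passed and 20 were below 0 (median −0.82). Over all features 7272 of 75212 passed as lower with median centring (median −0.02) and 5977 with quantile normalization (median 0.02). Among the 12 lower-median arrays alone, F1 DMSO replicate 5 is the only F1 DMSO fish. There 20 of 21 in family E were below 0 (median −1.14), and the median over all features was −0.0019.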

How the data were processed

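Per the submitters' processing notes, Affymetrix Expression Console was used; its version, its summarisation and its normalization are not given in the sources used here. Values as deposited were log2 signals, a scale read from the values. All 20 columns and 75212 features entered, without further normalization or filter. Rows identical in all columns were grouped as profiles; the members and lists were chosen with earlier results of these data known. A model of 4 group means was fitted with limma 3.58.1 in R 4.3.3 (lmFit, eBayes, 16 residual degrees of freedom, two-sided, Benjamini-Hochberg over all features, threshold 0.05). Pooled within-group SD is the root of the mean group variance; percentiles are among the 500 single-row profiles of nearest mean level. Named profiles are the extremes of row number, level, SD and ID span, and per contrast and direction the largest changes that passed or else the smallest p. Replicate numbers were not treated as pairs in the main fit. Alternatives were scaling, array set, array weights, dim features left out, row limits and leaving out each fish. The procedure was tested on simulated data. The number of arrays limits the precision. Symbols came from the platform annotation: 20806 features have 1 symbol, 855 several and 53551 none.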

Additional observations from a re-analysis of the deposited data

Results flagged for a closer look

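In 7 of 116 groups of 5 fish examined (each named profile, each family mean and 3 summary measures of the arrays, in each group), 1 fish lay far from the others, and chance alone would give about 5.8 such groups. Profile 12920825 was 1.65 in F1 DMSO replicate 5, below the others of its group. Profile 12922875 was 1.69 in F1 TCDD replicate 5, far below the other F1 TCDD fish, and 5.27 in F2 DMSO replicate 1, far above the other F2 DMSO fish. The mean of family B was 3.75 in F2 DMSO replicate 1, the lowest of its group. The mean of family G was 6.45 in F1 DMSO replicate 2, the highest of its group. The mean of family H was 3.64 in F1 TCDD replicate 1 and 3.42 in F2 DMSO replicate 4, each the lowest of its group.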

How the results depend on the processing

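The count of shared profiles that passed was 0 in F1, 0 in F2 and 0 for the difference between them under every alternative run, including each fish left out in turn. These zeros lay near the background, since few features passed at all. Over all features the shares in these contrasts were 0.0%, 0.0957% and 0.0% in the main fit. With array weights they were 0.00931%, 0.67% and 0.0691%. The number in F2 against F1 of the DMSO lineage, 50, was 25 with median centring and 24 with quantile normalization. It was 0 with the array set as a block, also when F1 TCDD replicate 2 was left out of that fit. Array weights gave 90, and a fold threshold of 2 gave 32. With the dimmer 50% of features left out, 48 shared profiles remained, and 16 of these (33.3%) passed. Over all features 57.1% passed with array weights, 32.9% (of the brighter features) with dim ones left out, and 12.6% at the fold threshold. With each fish left out in turn the number of 169 ran from 23 (13.6%) to 61 (36.1%). It was 23 without F1 DMSO replicate 2 or 3, against 17.4% and 16.5% of all features. Without F1 DMSO replicate 5 or F1 TCDD replicate 5 there were 61, against 38.8% and 34.5%. The lowest share over all features, 15.5%, came without F1 DMSO replicate 4, where 27 shared profiles passed. The number was 107 of 356 profiles when 5 rows sufficed and 9 of 36 when 7 were required, beside 27.6% of all features. Limited to 7 rows or more, the median level was 3.84. Against neighbours from the low ID stretch the SD percentile was 57.0. For single named profiles, 390 of 424 alternative values kept direction and call, 34 lost the call and 0 reversed. The named lineage differences had not passed, so keeping the call there means staying uncalled. Only the named changes of F2 against F1 in the DMSO lineage had passed and could lose a call. Same-numbered fish of the 2 lineages correlated at −0.14 to 0.60, so not every pair passed the 0.1 required to treat numbers as pairs. The best match of a fish was its own number in 4 of 5 in F1 and 2 of 5 in F2, a hint from the data only, and in F1 both replicates 5 share an array set. A replicate block gave 48 profiles (28.4%) in place of 50, against 28.5% of all features. In each lineage contrast it gave 0, against 0.0% of all features in F1 and 0.0864% in F2. Values near the low end of the signal scale were not tested against background.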
